A study of Mus musculus with 20 samples.

Results

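The genes described here present peptides on MHC class I molecules. They are the light chain gene B2m, the heavy chain genes H2-D1, H2-K1 and H2-T23, the peptide transporter genes Tap1 and Tap2, the tapasin gene Tapbp and the immunoproteasome subunit genes Psmb8 and Psmb9. These 9 genes, of 55471 in the gene table, were chosen by name with the log2 fold changes and levels of the same libraries in the 4 groups known, so their own values are a description and no p-value is given for any of them. RNA was sequenced from mouse back-skin epidermis, with 5 libraries after acetone and 5 after DNFB (a contact allergen dissolved in acetone and olive oil), and from mouse pancreas, with 5 libraries after PBS and 5 after caerulein in PBS. Caerulein is a peptide that overstimulates the enzyme-secreting acinar cells and causes pancreatitis. All 4 groups were wild-type mice, and the applications or injections were repeated over several weeks. The labels name the skin source as epithelial skin, and the study's methods state mice of both sexes, 4 to 6 weeks old at the start, for the skin protocol and state no age for the pancreas. The labels do not say that each library came from a separate mouse, so p-values measure the spread between these libraries.

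Almost every nucleated cell carries MHC class I. The proteasome cuts cytosolic proteins into peptides, the TAP transporter moves them into the endoplasmic reticulum, and tapasin holds the transporter near the empty class I molecule while a peptide is loaded. Only a heavy chain that is paired with B2m and holds a peptide is stable at the cell surface, where CD8 T cells read the classical molecules H2-K and H2-D. H2-T23 encodes Qa-1, a nonclassical molecule recognized by NK cell receptors. Interferons raise transcription of the whole pathway and swap constitutive catalytic proteasome subunits for Psmb8 and Psmb9, and macrophages and dendritic cells hold more of these transcripts than most epithelial cells do.

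Of the 9 genes, 8 lay on chromosome 17 between positions 33915899 and 36032855 (GRCm38, GENCODE M21), which is the mouse MHC. B2m lay on chromosome 2, from 122147686 to 122153083. Tap1 on the plus strand and Psmb9 on the minus strand lie head to head. They overlap by 212 bases in this annotation, since the Tap1 gene begins at 34187553 and the Psmb9 gene reaches 34187764. Reads from the overlap cannot be told apart without strand. RefSeq promoter entries (GRCm38.p6) were matched for 8 of the 9 genes. In these entries the starts of Tap1 and Psmb9 are at 34187556 and 34187330, with 225 bases between them. The letters AANNGAAA, the core read by interferon regulatory factors, occurred on either strand within 250 bases upstream of B2m, H2-D1, H2-K1 and H2-T23, and in the same 250 bases of 21.3% of all 32851 promoters. The NF-kB type letters, GG and TCCC with 4 bases of any letter between, occurred upstream of B2m, H2-D1 and H2-K1, and in 17.6% of all promoters. These motifs were chosen after the promoters had been read, and a match is a description of letters and not of a bound site. The stretches that span both motifs are shown because they lie upstream of the RefSeq starts of the 3 genes with the highest counts and have the 2 motifs in opposite order in B2m and in the heavy chain genes. They are written 5′ to 3′ on the gene's strand, with the letters of both motifs in capitals, including overlapping matches. The H2-D1 stretch also lies within the annotated 5′ UTR of 1 of the 4 GENCODE M21 transcripts of that gene, which starts further upstream.
B2m, chr2:122147550-122147570, plus strand: AACTGAAAatGGGAAAGTCCC
H2-K1, chr17:34000430-34000458, minus strand: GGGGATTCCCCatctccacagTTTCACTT
H2-D1, chr17:35262923-35262951, plus strand: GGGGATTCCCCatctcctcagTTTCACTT
In the heavy chain genes the interferon core reads on the opposite strand. Upstream of H2-K1 and H2-D1 the 190 aligned bases were 87.9% identical. The longer interferon-stimulated element, GAAA repeated after 2 bases of any letter, which can hold the core, was found upstream of B2m and H2-T23, and in 2.98% of all promoters. H2-T23, Tap1, Tapbp, Psmb8 and Psmb9 held no such NF-kB type letters in the 250 bases searched.

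Library totals ranged from 791491 to 2232039 counts, but 37.9% to 94.3% of them fell on 12 satellite-like predicted genes. Outside these genes 69592 to 1073987 counts were left per library. The acetone libraries labelled 11 and 12 stood apart, with 1073987 and 938689 such counts against 92640 to 152978 in the other 3 acetone libraries. The 9 genes together had 46 to 5972 counts per acetone library, 292 to 2225 per DNFB library, 14 to 202 per PBS library and 104 to 4810 per caerulein library. As a share of the counts outside the satellite-like genes, their median was 0.165% after acetone, 0.194% after DNFB, 0.0201% after PBS and 0.352% after caerulein. Keratinocyte markers (Krt5, Krt14, Krt1, Krt10) summed to at least 149 normalized CPM in every skin library and to at most 2.42 in every pancreas library. The 6 acinar markers summed to 5450 to 64100 in the PBS libraries and to 630 to 7400 in the caerulein libraries.

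**Figure D1:**
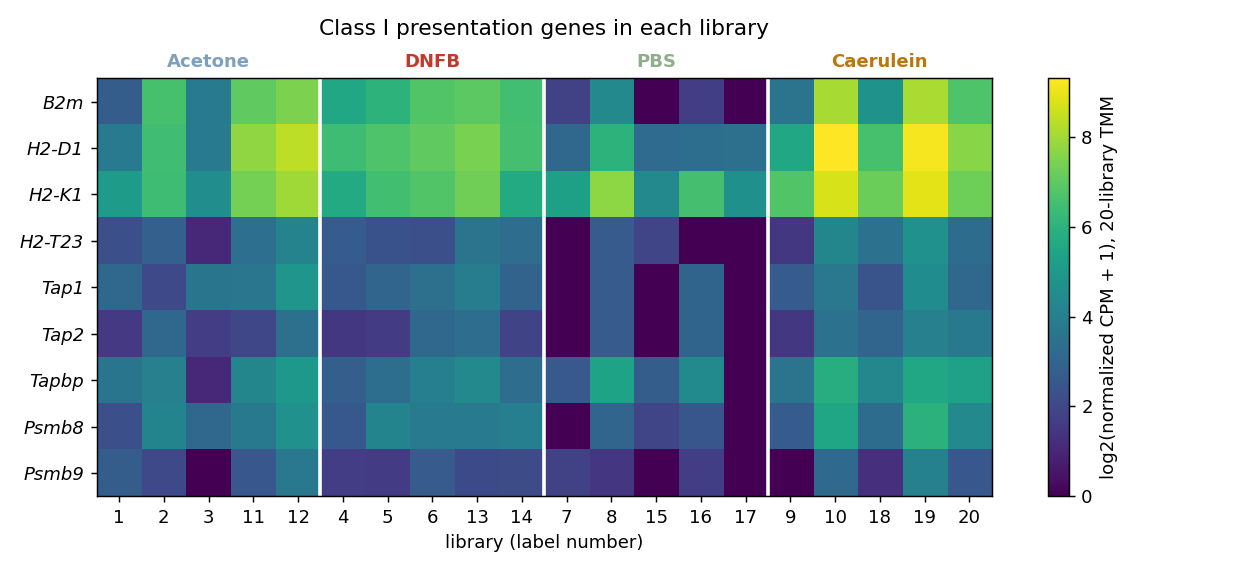
Heat map of the 9 class I presentation genes (rows) in the 20 libraries (columns, numbered as labelled, 5 per group), with color giving log2(normalized CPM + 1) on 1 scale for all libraries. PBS has the lowest group median for all 9 genes. PBS 8 is nevertheless brighter than acetone 1 and 3 for B2m, H2-D1 and H2-K1. Acetone 11 and 12 and caerulein 10 and 19 are the brightest for B2m and H2-D1. For H2-K1 the brightest are acetone 12 and caerulein 10 and 19, with PBS 8 above acetone 11.

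In pancreas, class I presentation genes were higher after caerulein than after PBS. The light chain gene B2m and the heavy chain gene H2-D1 rose, with log2 fold changes of 4.87 (SE 1.06) and 4.11 (SE 0.89). Counts were low in PBS and also in caerulein 9 and 18, and 4 of the 9 genes passed the filter. Their log2 fold changes ran from 1.33 to 4.87, beside a median of 0.00 for the 946 genes tested. In a fit without the filter all 9 were positive, from 2.07 to 5.59, with a median of 3.09 beside 0.46 for 38895 genes. B2m had 5.59 and Tapbp 2.07 there, against 4.87 and 1.33 with the filter, so values of the 2 fits are not on 1 scale. Of the 4 genes that passed the filter, 2 passed the threshold (adjusted p of edgeR's quasi-likelihood test below 0.05). Among all genes tested 8.14% passed it as higher and 4.02% as lower. Since the list was drawn up with this comparison known, nothing is read from that difference. Normalized CPM below are CPM scaled within a tissue by TMM.

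B2m had few counts in PBS pancreas, where 69592 to 201611 counts per library lay outside the satellite-like genes. Its normalized CPM were 1.46, 9.59, 0, 1.80 and 0 in PBS 7, 8, 15, 16 and 17, from 13 counts in all. After caerulein they were 7.27, 175, 14, 171 and 78.3 in libraries 9, 10, 18, 19 and 20, from 1968 counts. Libraries 10, 19 and 20 were high, and 4 of 5 caerulein libraries lay above every PBS library, with caerulein 9 below PBS 8. The group mean rose from 2.57 ± 4.01 to 89.1 ± 81.4 (SD, n = 5 each), and the ratio of pooled counts was 33.2, with an exact 95% interval of 19.4 to 62.5. That interval treats the pooled reads as independent counts and leaves out the spread between libraries. Reads of this kind carry no molecular identifiers, so they need not be independent.

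H2-D1, the H2-D heavy chain, had normalized CPM of 4.39, 31.4, 5.95, 7.19 and 6.18 in PBS 7, 8, 15, 16 and 17. In caerulein 9, 10, 18, 19 and 20 it had 30.3, 407, 51.5, 354 and 149. PBS 8 overlapped caerulein 9, and the other 4 caerulein libraries lay above every PBS library. H2-K1, the H2-K heavy chain, started from a higher level and changed less. Its values were 22, 103, 13.9, 71.9 and 15.5 after PBS and 71.5, 277, 79.5, 298 and 112 after caerulein, in the same library order. Here 3 of 5 caerulein libraries exceeded every PBS library, and the log2 fold change of 1.88 (SE 0.74) did not pass the threshold. H2-T23 had 4 counts in the 5 PBS libraries, 3 of them in PBS 8, and 162 counts in the 5 caerulein libraries, a pooled ratio of 8.89 (counting interval 3.41 to 33.0). It fell under the filter, and its log2 fold change in a fit without the filter was 3.68. Between 8.11% and 16% of the 50-base words in the longest transcripts of H2-K1, H2-D1 and H2-T23 also occurred in other genes, most often in H2-D1, H2-Q1 and H2-T-ps, so RSEM could divide some of their reads among relatives.

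The transporter genes had few counts in PBS pancreas. Tap1 and Tap2, the 2 chains of the TAP transporter, each had 6 counts in the PBS group, all in PBS 8 and 16, against 129 and 124 counts after caerulein. The pooled ratios were 4.72 (counting interval 2.11 to 13.1) for Tap1 and 4.54 (2.03 to 12.6) for Tap2, and in both genes 3 of 5 caerulein libraries exceeded every PBS library. Tapbp had normalized CPM of 2.93, 20, 3.97, 16.2 and 0 after PBS and of 7.27, 34.9, 10.1, 29.1 and 29.3 after caerulein. Its log2 fold change of 1.33 (SE 0.73) did not pass the threshold, and its value was the smallest of the 9 in the fit without the filter. Tapbp shared 21% of its 50-base words with other genes, mostly with the predicted gene Gm19412, and Tap2 shared 12.6%, mostly with the overlapping gene Gm15821.

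Psmb8, which replaces the catalytic subunit Psmb5 in the immunoproteasome, was the only gene of the 9 whose pancreas groups did not overlap. Its normalized CPM were 0, 3.49, 1.98, 3.60 and 0 after PBS and 3.64, 28.8, 4.68, 38.4 and 14.8 after caerulein. The gap between PBS 16 and caerulein 9 was small, from 2 and 3 counts. Of all 946 genes tested, 2.54% had every caerulein library above every PBS library. Psmb8 fell under the filter and is not among those 946. Psmb9, which replaces Psmb6, had 3 PBS counts and 84 caerulein counts, a ratio of 6.15 (counting interval 2.03 to 30.4), and 0 counts in caerulein 9. The fits without the filter gave log2 fold changes of 4.10 for Psmb8 and 3.09 for Psmb9.

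The count of genes past the threshold depended on the filter, the tool and on 1 library. Without the filter 8 of the 9 genes passed (all but Tapbp, background 3.18%), and with DESeq2 5 passed (B2m, H2-D1, H2-K1, H2-T23 and Psmb8, background 7.63%). Without PBS 7 none of the 4 genes tested passed, and without PBS 8 3 passed.

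**Figure D2:**
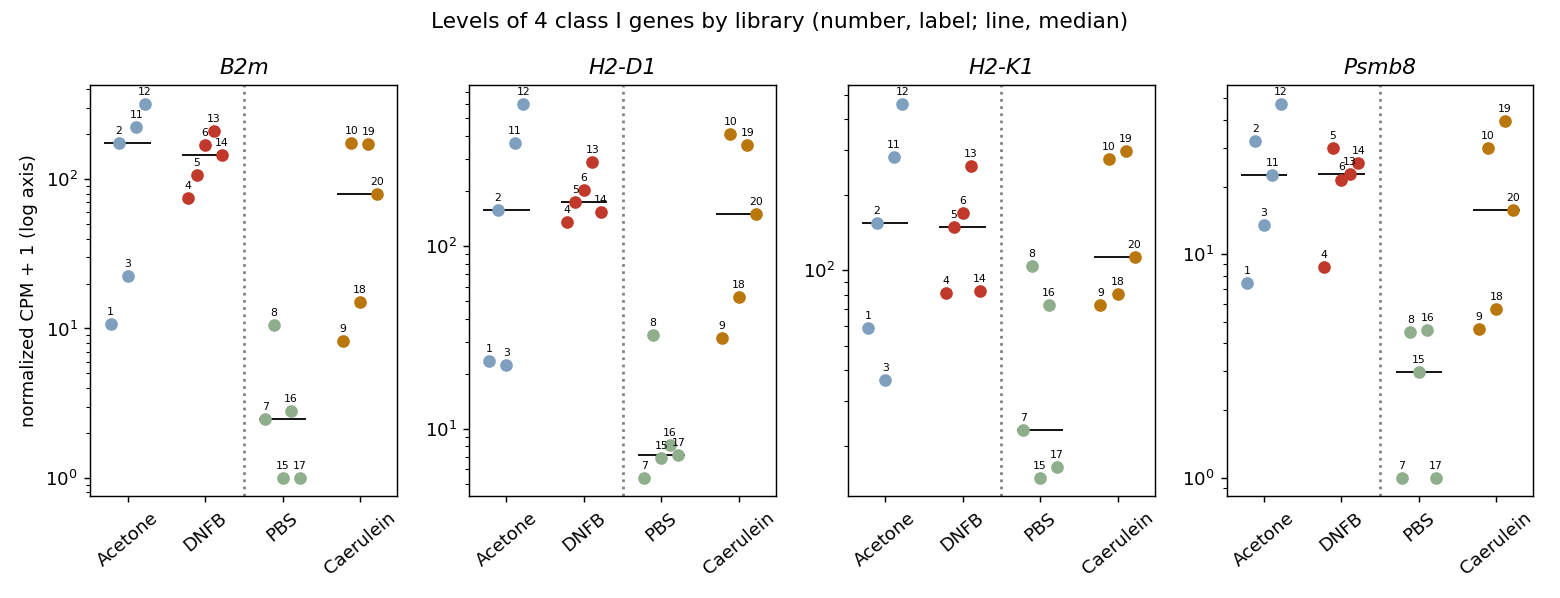
Normalized CPM plus 1 (log axis) of B2m, H2-D1, H2-K1 and Psmb8 in each library, numbered as labelled, with the group median as a line. Values are scaled within a tissue, so groups are to be compared on their own side of the dotted line, where the PBS points lie mostly below the caerulein points and the acetone and DNFB points overlap.

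Markers of other cells moved with these genes in the pancreas. The 5 macrophage markers (Cd68, Lyz2, Adgre1, Csf1r, C1qa) summed to 9.27 to 114 normalized CPM after PBS, highest in PBS 8, and to 64.2 to 1360 after caerulein. Caerulein 10 and 19 had the highest macrophage sums, 1360 and 785, and also the highest B2m, H2-D1 and H2-K1, while caerulein 9 had the lowest of its group, 64.2. None of the 5 markers was at 0 in either group, 2 were tested and 1 of them rose. The MHC class II and Langerhans list (Cd74, H2-Aa, H2-Ab1, H2-Eb1 and Cd207) ranged from 21.8 to 55.8 after PBS and from 87.2 to 623 after caerulein. All 4 of its class II genes rose, and Cd207, which marks Langerhans cells, was at 0 in both pancreas groups. All 6 acinar markers fell. Leukocyte markers ranged from 16.1 to 87.2 and from 55.4 to 348, and none of the 3 tested passed the threshold. The 4 duct markers ranged from 5.40 to 14.6 after PBS and from 18.5 to 156 after caerulein, and the 1 tested did not pass. Fibroblast sums overlapped, from 14.6 to 369 and from 102 to 752, and 1 of 3 tested fibroblast markers rose. Caerulein 10 and 19 also had the highest leukocyte (348 and 234), class II (439 and 623) and fibroblast (752 and 385) sums of their group. The highest duct and endothelial sums were in caerulein 20 and 9. The sums of T and NK cell, B cell and endothelial markers were at most 50.2 in every pancreas library. The T and NK cell sum was 50.2 in caerulein 19 and 4.36 in caerulein 10. The part of these cells in the class I values was not tested, and in whole tissue fewer cells of a type and less RNA per cell cannot be told apart.

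**Figure D3:**
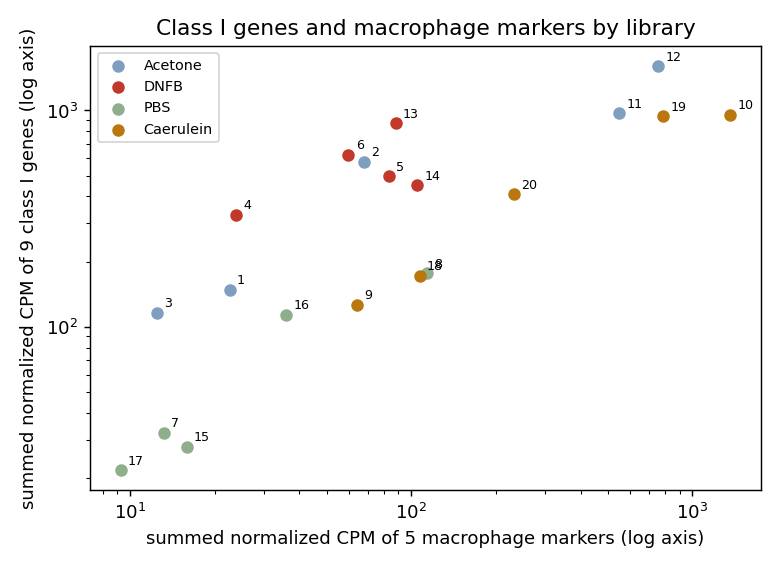
Summed normalized CPM of the 9 class I genes against the summed normalized CPM of 5 macrophage markers in each library, both on log axes, scaled within a tissue and colored by group. Acetone 11 and 12 and caerulein 10 and 19, with macrophage sums of 550 to 1360, stand at the upper right, and PBS 7, 15 and 17 at the lower left.

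In epidermis, no difference between DNFB and acetone was detectable in any of the 9 genes. Their log2 fold changes lay between -1.17 (Psmb9) and -0.11 (B2m, SE 0.78), with a median of -0.42 beside 0.02 for the 7265 genes tested. Of these values 2, Tap2 (-0.28) and Psmb9, are from the fit without the filter, in which the 9 had a median of -0.83 beside 0.13 for 43251 genes. Of the 9 genes, 7 passed the filter and 0 passed the threshold with edgeR, where 0.0275% of all genes tested passed as higher and 0.0138% as lower. At an unadjusted p below 0.05 there were also 0, beside 2.95% of all genes as higher and 2.86% as lower, and with DESeq2 0, beside 0.175% and 0.184%. The groups overlapped for every one of the 9, whereas 0.564% of all genes had every DNFB library above and 0.688% every DNFB library below every acetone library. The standard errors of the 7 tested genes were 0.53 to 0.81.

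The spread was widest among the acetone libraries. B2m had normalized CPM of 9.67, 173, 21.4, 223 and 320 in acetone 1, 2, 3, 11 and 12, and of 73.8, 105, 169, 208 and 144 in DNFB 4, 5, 6, 13 and 14. The acetone libraries 1 and 3 were below and 11 and 12 above all 5 DNFB libraries. H2-D1 had 22.6, 156, 21.4, 364 and 600 after acetone and 134, 173, 201, 286 and 152 after DNFB. H2-K1 had 58.0, 153, 35.6, 281 and 460 after acetone and 80.4, 148, 168, 259 and 81.4 after DNFB. In both heavy chain genes the same acetone libraries marked the low and the high end, and DNFB lay between them. The SDs of H2-D1 were 248 after acetone and 59.8 after DNFB.

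The remaining genes had fewer counts. H2-T23 ranged from 1.78 to 30.6 normalized CPM after acetone and from 5.98 to 18.4 after DNFB, and Tap1 from 5.68 to 51.6 and from 7.74 to 23.9. Tap2 ranged from 3.22 to 18 and from 2.98 to 15.3. Tapbp ranged from 1.78 to 55.1 after acetone and from 9.53 to 33.3 after DNFB. Psmb8 ranged from 6.44 to 46.2 and from 7.74 to 28.9, and Psmb9 from 0 to 22.3 and from 3.40 to 8.22. Acetone 12 was the highest of the 5 acetone libraries for each of the 9 genes.

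Leaving out acetone 11 and 12 turned the direction of all 9 genes. The log2 fold changes became 1.18 for B2m, 1.63 for H2-D1, 0.96 for H2-K1, 0.93 for H2-T23, 0.27 for Tap1, 1.24 for Tap2, 0.44 for Tapbp, 0.37 for Psmb8 and 1.22 for Psmb9, with a median of 0.96, and 0 of the 7 genes tested passed the threshold. Without acetone 12 alone the median was 0.12. The direction of these genes in epidermis therefore rested on 2 of 10 libraries. The same 2 libraries had macrophage marker sums of 550 and 756 normalized CPM, against 12.5 to 68.1 in the other acetone libraries and 23.8 to 105 in the DNFB libraries. Their class II and Langerhans sums were 402 and 964, against 26.7 to 116 and 75.0 to 163. Leukocyte sums were 101 and 131 in these libraries, 28.5 to 39.8 in the other acetone libraries and 33.3 to 271 after DNFB, and no marker list had a gene past the threshold in skin. Other lists differed too. Acetone 11 and 12 had the highest keratinocyte sums of their group, 1290 and 2290, with 1240 in acetone 2. Their fibroblast sums were 318 and 399, against 99.7 to 383 in the other acetone libraries and 80.3 to 143 after DNFB. Their T and NK cell (5.27 and 10.5), endothelial (2.54 and 8.86) and B cell (0.976 and 2.15) sums were the lowest of their group. Acetone libraries 1 and 3, the lowest for B2m, also had the lowest keratinocyte sums of their group, 226 and 149. The part of these differences in the class I values was not tested.

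**Figure D4:**
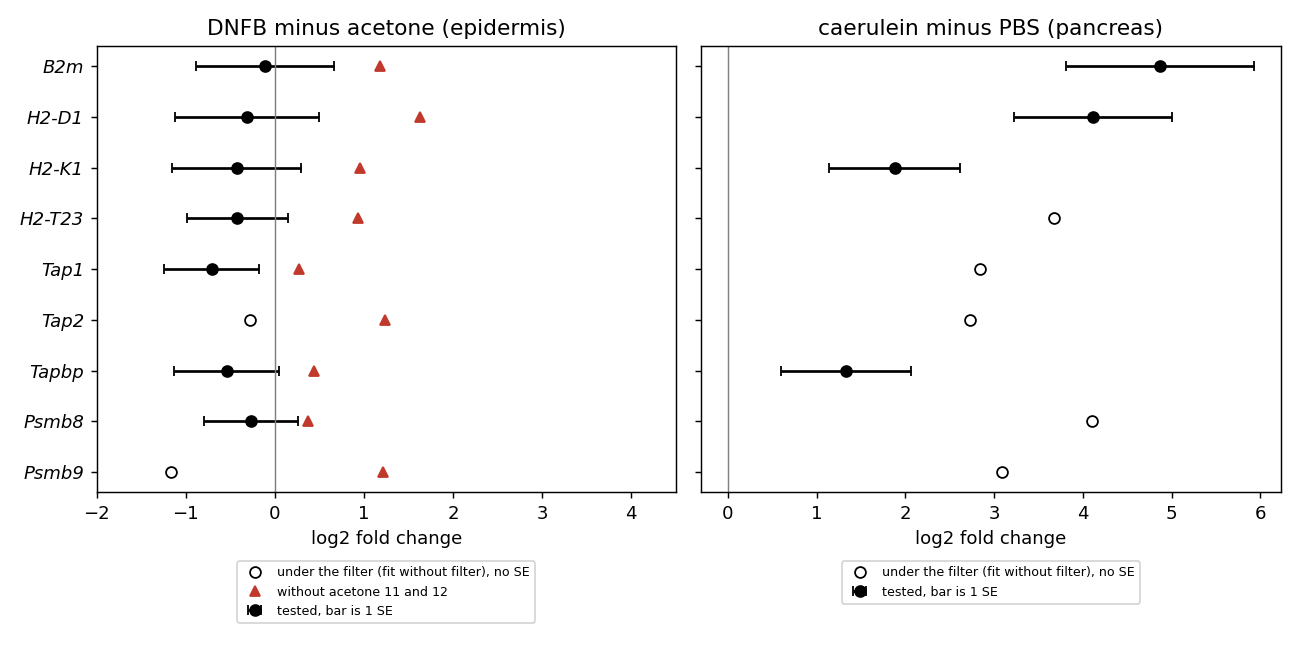
Log2 fold changes of the 9 genes for DNFB minus acetone and for caerulein minus PBS, with filled points and bars of 1 SE for tested genes and open points for genes under the filter, fitted without it and so not on the scale of the filled points. Triangles show the skin values without acetone 11 and 12, all above 0, whereas with all libraries the 9 skin values lie below 0 and the 9 pancreas values above it.

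The responses of the tissues were set against each other in a fit of all 20 libraries, as the DNFB effect minus the caerulein effect. All 9 genes were tested in it, and the differences ran from -4.65 (B2m, SE 1.32) and -4.10 (H2-D1, SE 1.21) to -1.61 (Tapbp, SE 0.99), with a median of -3.02 beside -0.38 for the 8336 genes tested. None passed the threshold with edgeR, 6 were below an unadjusted p of 0.05, beside 12.2% of all genes as lower, and among all genes 0.216% passed the threshold as lower and 0.048% as higher. Without the filter 6 passed, and with DESeq2 5 passed (background 2.07% and 3.54%). Without acetone 11 and 12 the values for H2-D1, H2-K1 and H2-T23 shrank to -2.42, -0.89 and -2.03, and the median to -1.96.

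On the scale set across all 20 libraries, the median of the caerulein libraries was the highest of the 4 groups for 7 of the 9 genes, and that of the acetone libraries for Tap1 and Psmb9. PBS pancreas had the lowest median for all 9. For B2m the medians were 105 normalized CPM after caerulein (range 11 to 276), 95.6 after acetone (5.72 to 175), 88.5 after DNFB (46.2 to 124) and 2.31 after PBS (0 to 19.7). Neighbours in that order overlapped except DNFB and PBS. For H2-D1 the order was caerulein, DNFB, acetone and PBS, with medians of 201, 105, 86.2 and 9.24, and for H2-K1 the same order, with medians of 151, 89.4, 84.6 and 37.8. For each of the 8 genes other than B2m every pair of neighbours in the order overlapped. H2-K1 in PBS pancreas, up to 211 in PBS 8, reached into the range of all other groups.

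Compared per kilobase of all annotated exons, B2m was the most abundant of the 9 in skin, with a mean level of 97.8 after acetone and 100 after DNFB. H2-D1 followed with means of 50.7 and 45.2 per kilobase and H2-K1 with 38.0 and 30.8. The other 6 genes had means below 5 per kilobase in both skin groups, with Tap2 the lowest after acetone (1.31) and Psmb9 after DNFB (0.891). In PBS pancreas the order differed. H2-K1 had the highest mean level, 26.3 per kilobase, ahead of H2-D1 (7.72) and B2m (5.70), while after caerulein B2m led again with 160 per kilobase, before H2-D1 (120) and H2-K1 (89.7). Between 60.9% and 100% of the counts on the 9 genes fell on B2m, H2-D1 and H2-K1 in each library.

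A ratio of genes within a library needs no scaling between libraries. The ratio of H2-K1 to H2-D1 had its highest group mean in PBS pancreas. In all 5 PBS libraries H2-K1 had more counts than H2-D1, with 15 against 3, 118 against 36, 7 against 3, 40 against 4 and 10 against 4 in PBS 7, 8, 15, 16 and 17. The mean log2 ratio was 1.87 ± 0.84 (SD, n = 5). After caerulein it was 0.13 ± 0.76, with H2-K1 ahead in 2 of 5 libraries, 9 and 18, and in acetone epidermis 0.25 ± 0.74, again with H2-K1 ahead in 2 of 5. In DNFB epidermis H2-D1 was ahead in all 5 libraries, with a mean of -0.45 ± 0.34. Caerulein 9, at 1.22, and acetone 1, at 1.3, lay inside the PBS range of 1.10 to 3.17, so PBS overlapped both of these groups by 1 library each. Outside PBS, H2-K1 was ahead only in acetone 1 and 3 and caerulein 9 and 18. These had 87788 to 152978 counts outside the satellite-like genes, and the PBS libraries 69592 to 201611. Acetone 2, with 123847 such counts, was close to even, with 54 H2-K1 and 55 H2-D1 counts. DNFB 5, with 150167, had 87 and 102. The part of depth in this ratio was not tested. This ratio was not tested, since it is built from genes chosen with their values known, and 6.52% of the 50-base words of H2-K1 also occur in H2-D1. The H2-K1 share of all counts on the 9 genes ranged from 50% to 71.4% in the PBS libraries and from 27.5% to 56.7% in the caerulein libraries.

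**Figure D5:**
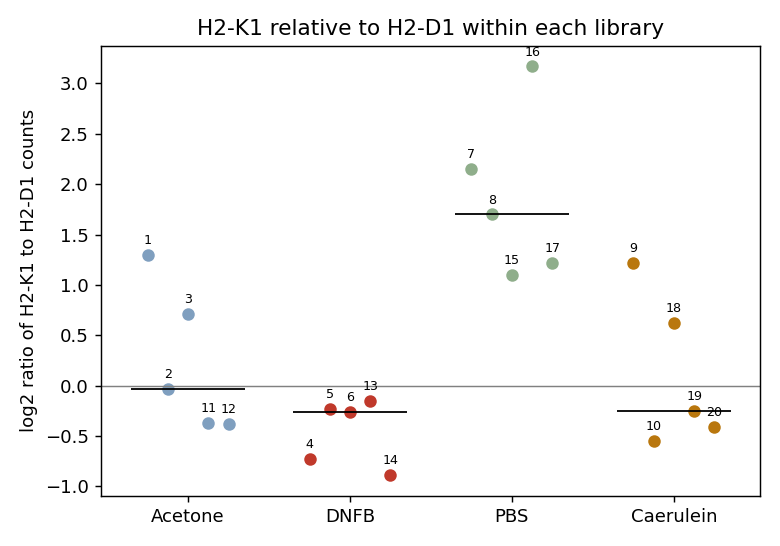
Log2 ratio of H2-K1 to H2-D1 counts within each library, by group, with 0.5 added to both counts, library numbers as labelled and the group median as a line. All PBS libraries lie at 1.10 or above, as do acetone 1 and caerulein 9, all DNFB libraries below 0, and the acetone and caerulein libraries on both sides of 0.

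The ratio of the immunoproteasome genes Psmb8 and Psmb9 to their constitutive counterparts Psmb5 and Psmb6 overlapped among the 4 groups. Its mean log2 value was -1.04 ± 1.07 after acetone, -1.84 ± 1.26 after DNFB, -1.48 ± 1.60 after PBS and -0.85 ± 1.15 after caerulein (SD, n = 5 each). The range within each group spanned more than the difference between any pair of group means. The PBS value rested on 10 counts of the immunoproteasome pair and 34 of the constitutive pair. With the third subunits added, Psmb10 and its counterpart Psmb7, the PBS mean turned to 1.09 and became the highest, against -1.17 after acetone, -1.78 after DNFB and -0.21 after caerulein. Psmb10 had 58 counts and Psmb7 1 count in the PBS group.

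Within groups the 9 genes varied together. After each group mean was taken out, Pearson's r of log2 normalized CPM over the 20 libraries had a median of 0.72 over the 36 pairs of genes, from 0.40 (Tap1 and H2-T23) to 0.93 (H2-D1 and B2m). The libraries also share a depth, and the mean standardized level of the 9 genes had an r of 0.66 with log2 depth outside the satellite-like genes, so these correlations are a description. Of 8327 other genes, those most like the 9 were Ifngr1, a chain of the interferon-gamma receptor (r 0.92), Nisch (0.91), the lysosomal enzyme gene Hexa (0.90), the phospholipase C gene Plcd1 (0.90) and the lysosomal cholesterol carrier gene Npc2 (0.89). Normalized CPM of Ifngr1 ranged from 0 to 25.2 over the 20 libraries. None of these 5 genes passed the threshold in a tissue in which it was tested.

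A list of 71 other genes of the pathway was examined with the same fits. It too was drawn up with earlier results of these data known, so its p-values are not independent evidence. In skin 49 of the 71 were tested and 0 passed the threshold in either direction with edgeR or with DESeq2, beside the backgrounds given above, while 2 were lower at an unadjusted p below 0.05, beside 2.86% of all genes tested. These were Nlrc5, the transactivator of class I genes, with a log2 fold change of -1.18 (SE 0.45, edgeR adjusted p = 0.717), and Ifngr1, at -1.22 (SE 0.55, adjusted p = 0.811). Nlrc5 means were 15.2 ± 5.75 normalized CPM after acetone and 6.60 ± 1.56 after DNFB (SD, n = 5 each), and 3 DNFB libraries lay below every acetone library. The next lowest p-values belonged to the kinase gene Jak1 (-0.91, SE 0.48), the NF-kB subunit gene Nfkb1 (-0.98, SE 0.56), the proteasome gene Psma5 (0.86, SE 0.61) and the interferon-response factor gene Irf1 (-0.74, SE 0.54), with edgeR adjusted p from 0.884 to 0.965.

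By group, the regulators of class I genes had 15 of 22 members tested in skin, 2 of them with a positive log2 fold change and a median of -0.40. All 14 genes of the constitutive proteasome were tested and had positive values, from 0.01 to 0.86, with a median of 0.36 and SEs of 0.54 to 0.76. In the fit without the filter Psmb1 (-0.10), Psmb6 (-0.03) and Psma4 (-0.08) were negative, so the common sign depended on the filter. Other class I heavy chain genes had 4 of 17 tested with a median of -0.50, loading and trimming genes 11 of 12 with a median of 0.10, and immunoproteasome and activator genes 5 of 6 with a median of -0.10. No gene of these lists passed the threshold, and the median of all genes was 0.02.

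In pancreas 7 of the 71 genes passed the filter and 0 passed the threshold with edgeR, with 2 higher at an unadjusted p below 0.05, beside 17.2% of all genes tested. The chaperone gene Hspa5 had a log2 fold change of 2.30 (SE 0.78, edgeR adjusted p = 0.059) and the constitutive proteasome gene Psmb6 of 1.99 (SE 0.69, adjusted p = 0.0649). Hspa5 means were 14.1 ± 10.3 normalized CPM after PBS and 71.0 ± 60.1 after caerulein, with 3 of 5 caerulein libraries above every PBS library. Psmb6 means were 4.22 ± 3.67 and 17.9 ± 12.2, with 4 of 5 above. The loading chaperones calreticulin (Calr, 1.18, SE 0.59) and calnexin (Canx, 0.76, SE 0.54), the peptidase gene Lnpep (-1.09, SE 0.57) and the third immunoproteasome subunit gene Psmb10 (-0.72, SE 0.56) had edgeR adjusted p from 0.189 to 0.39. In the fit without the filter Psmb10 was at 0.07 (adjusted p = 0.967), beside the 4.10 of Psmb8 and 3.09 of Psmb9 in that fit, so its sign depended on the filter.

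Without the filter 24 of the 71 genes passed the threshold as higher in caerulein pancreas, and with DESeq2 19 of 50, beside the background given above of 3.18% and 7.63%. Constitutive proteasome genes made up 12 of the 24 and 11 of the 19. The nonclassical heavy chain gene H2-T22 had 5 counts after PBS and 159 after caerulein, and a log2 fold change of 3.34 in the edgeR fit without the filter (adjusted p = 0.0104). All 5 of its caerulein libraries lay above every PBS library, as in 2.54% of the 946 genes that passed the filter, which H2-T22 did not. The proteasome activator gene Psme2 had 8 and 290 counts in the same order, and a log2 fold change of 3.56 in that fit (adjusted p = 0.00387). H2-T22 and Psme2 were chosen after their values were seen. In the fit across tissues 53 of the 71 genes were tested and 0 passed the threshold with edgeR, while 19 were lower at an unadjusted p below 0.05, beside 12.2% of all genes, and 10 passed as lower with DESeq2, beside 3.54%.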

How the data were processed

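RNA of mouse epidermis and pancreas was made into Smart-Seq2 libraries, 5 per group, with groups taken from the labels. The values that the authors deposited are expected counts per gene, mapped to mm10 (GRCm38) with STAR 2.5.3 and estimated with RSEM 1.3.1. They are not normalized, and the gene annotation used in counting is not given in the sources used here. Counts were rounded, and 55144 of 55471 genes were named.

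The 9 genes, the other gene lists and the tests were chosen with earlier results of these data known. Named from the list of 71 pathway genes were those past the threshold in a tissue and the 6 with the lowest unadjusted p in each, and the 5 genes most correlated with the 9.

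Each tissue was fitted apart with edgeR 4.0.16 (R 4.3.3; filterByExpr, minimum count 10; TMM; quasi-likelihood test; Benjamini-Hochberg adjusted p below 0.05), and the difference between tissues in 1 fit of 20 libraries. Standard errors are the log2 fold change divided by the root of the test's F. Genes under the filter took their fold change from the fit of every gene with a count. DESeq2 1.42.0 was an alternative. Pooled count ratios divide counts by summed scaled library sizes, with exact 95% intervals for 2 Poisson counts. Within-library ratios added 0.5 to each count. A count of 3 was 0.000134% to 0.000379% of a library. On simulated data with 200 genes changed by 3 on the log2 scale, edgeR recovered 92.5% of them among 7265 genes for skin and 92.0% among 946 for pancreas, with 4 and 13 false calls. No column of per-sample values was left out.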

Additional observations from a re-analysis of the deposited data

Results flagged for a closer look

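In 2 of 44 groups of 5 values, 1 library stood far from the others, and chance alone gives about 2.2 such groups. H2-D1 in PBS 8 was at 31.4 normalized CPM, whereas the other 4 PBS libraries lay between 4.39 and 7.19. PBS 8 also had the highest macrophage, leukocyte and fibroblast marker sums of its group, 114, 87.2 and 369 normalized CPM, and the part of these cells in the H2-D1 value was not tested. Psmb8 in DNFB 4 was at 7.74 normalized CPM, whereas the other 4 DNFB libraries lay between 20.6 and 28.9.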

How the results depend on the processing

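Under all alternatives run, the pancreas log2 fold changes of the 9 genes were positive in 144 of 144 fitted values, from 0.78 to 6.99, while 22 of 154 skin values were positive. The pancreas median of 3.09 became 4.22 with library totals alone, where the median of all genes tested shifted to 1.86, and lay between 2.61 and 3.44 when each library was left out. These pancreas medians include values from fits without the filter for genes under it. They are therefore not on 1 scale with the median of all genes tested. The count of genes past the threshold, 2 of 4 tested, became 4 with library totals alone, 8 of 9 without the filter and 5 of 9 with DESeq2, and 0 (without PBS 7) to 3 (without PBS 8) when 1 library was left out. With at least 10 counts required in every library, none of the 9 genes and none of the 71 was left to test in pancreas, none of the 9 in the fit across tissues, and 1 of the 9 (H2-K1) in skin, so this setting gave no median. Pathway genes higher after caerulein, 0 of 7 tested, became 2 with DESeq2's scaling factors, 5 with library totals alone, 1 without the satellite-like genes, 24 without the filter, 1 with label numbers over 10 as a covariate and 19 with DESeq2, and 0 to 4 when 1 library was left out. In skin the median of -0.42 became 0.96 without acetone 11 and 12 and lay between -0.73 and 0.12 when each library was left out. Leaving out acetone 11 and 12 removes every acetone library numbered over 10 but keeps DNFB 13 and 14. With label numbers over 10 as a covariate the skin median was -0.15. B2m (0.21), H2-D1 (0.36) and Tap2 (0.11) were then positive and the other genes negative. The median difference between tissues, -3.02, became -5.39 with library totals alone, where all genes shifted to -2.36, and -4.39 without the filter, and its count past the threshold rose from 0 to 6 without the filter and 5 with DESeq2. The immunoproteasome ratio after PBS became 1.09 when Psmb7 and Psmb10 were added. The cause of these changes was not tested. The interaction without acetone 11 and 12 was chosen after seeing the data. Low PBS depth (69592 to 201611 counts outside the satellite-like genes) limits the pancreas values. No paired analysis was possible because the labels give each library its own number and no number is shared between groups.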
